A study of Pan troglodytes with 6 samples.

Results

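The genes described here encode the proteins of peroxisome assembly, peroxisomal and mitochondrial beta-oxidation, the activation, hydrolysis and binding of fatty acids, and their elongation and desaturation. They were chosen by gene symbol among the features of the array with exactly 1 annotated symbol, which gave 65 genes of 12584 so named, 1 feature each, among 15143 features in all. Another 17 features pair a symbol of these families with other symbols and were kept apart, so that FABP1 and CPT1B, for example, are not among the 65. RNA came from the liver and the cerebellum of chimpanzees (Pan troglodytes), 3 arrays per tissue, hybridised to Affymetrix Human Exon 1.0 ST arrays, whose probes were designed on the human genome. By the labels, replicate 1 of each tissue came from a female of 27 years, replicate 2 from a male of 37 years and replicate 3 from a male of 30 years, with no treatment named. The labels do not say that the liver and the cerebellum of a number came from the same animal. Whole tissue was used, so fewer cells of a type and less RNA per cell cannot be told apart.

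Peroxisomes and mitochondria both break down fatty acids by beta-oxidation, in which an activated fatty acid, an acyl-CoA, is shortened from its end in repeated cycles of oxidation, hydration, oxidation and thiolysis. Peroxisomes take very long and branched chains and release hydrogen peroxide, which catalase destroys, while mitochondria take long chains through the carnitine shuttle and pass the electrons to the respiratory chain. The liver is known for high rates of both pathways and for turning their product into ketone bodies, whereas brain tissue oxidises little fatty acid and needs long and unsaturated chains for its membranes.

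Levels are the authors' deposited intensities on a linear scale, which were the same set of values on all 6 arrays, and means are given with the SD over 3 arrays. Differences are liver minus cerebellum on the log2(intensity + 16.8) scale, in which values below 0 were set to 0, so that those of dim genes are understated. A gene was called where limma's adjusted p over all features was under 0.05. Levels of different genes depend on their probes and are not set against each other.

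The arrays matched their tissue labels. All 7 measured hepatocyte markers were called higher in liver, and their summed intensity was 21780 to 27021 in livers and 85.5 to 168 in cerebella. All 4 granule cell markers and all 4 general neuronal markers were called higher in cerebellum, with summed intensities of 110 to 125 and 62.9 to 116 in livers, against 5796 to 6800 and 9490 to 9988 in cerebella. Of all features 23.9% were called higher in liver and 26.7% higher in cerebellum. Liver replicate 3 stood apart from the other 2 livers. Across features, on the log2 scale, it correlated with them at r = 0.906 and 0.932, while livers 1 and 2 correlated at 0.950. These correlations run across features, which are no independent replicates, and serve only as a description.

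The 65 genes, those of breakdown and of chain synthesis together, were more often called higher in liver than in cerebellum. Of the 65 genes, 36 (55.4%) were called higher in liver and 5 (7.69%) higher in cerebellum, and 24 were not called. Over all features the shares were 23.9% and 26.7%. With a difference of at least 2-fold asked for as well, 28 and 5 genes remained (43.1% and 7.69%, against 15.8% and 17.2% of all features). The median log2 difference of the 65 genes was 0.84, against -0.04 over all features. All 3 livers lay above all 3 cerebella for 42 genes (64.6%, against 28.4% of all features), and all 3 cerebella lay above all 3 livers for 7 (10.8%, against 30.9%). Without liver replicate 3, 39 genes were called higher in liver and 8 in cerebellum, where all features gave 24.5% and 26.2%. In 14 alternative settings 28 of the 36 calls toward liver and all 5 calls toward cerebellum were kept wherever the gene was tested. The other 8 calls, all of differences under 1 on the log2 scale, were those of PEX3, PEX7, PEX11A, ACAD9, ACADM, HADHA, HADHB and ACOT8. Aligning the arrays on ribosomal, proteasome and respiratory chain genes moved the median of all features from -0.04 to -0.35, and all 8 calls were lost under it.

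**Figure D1:**
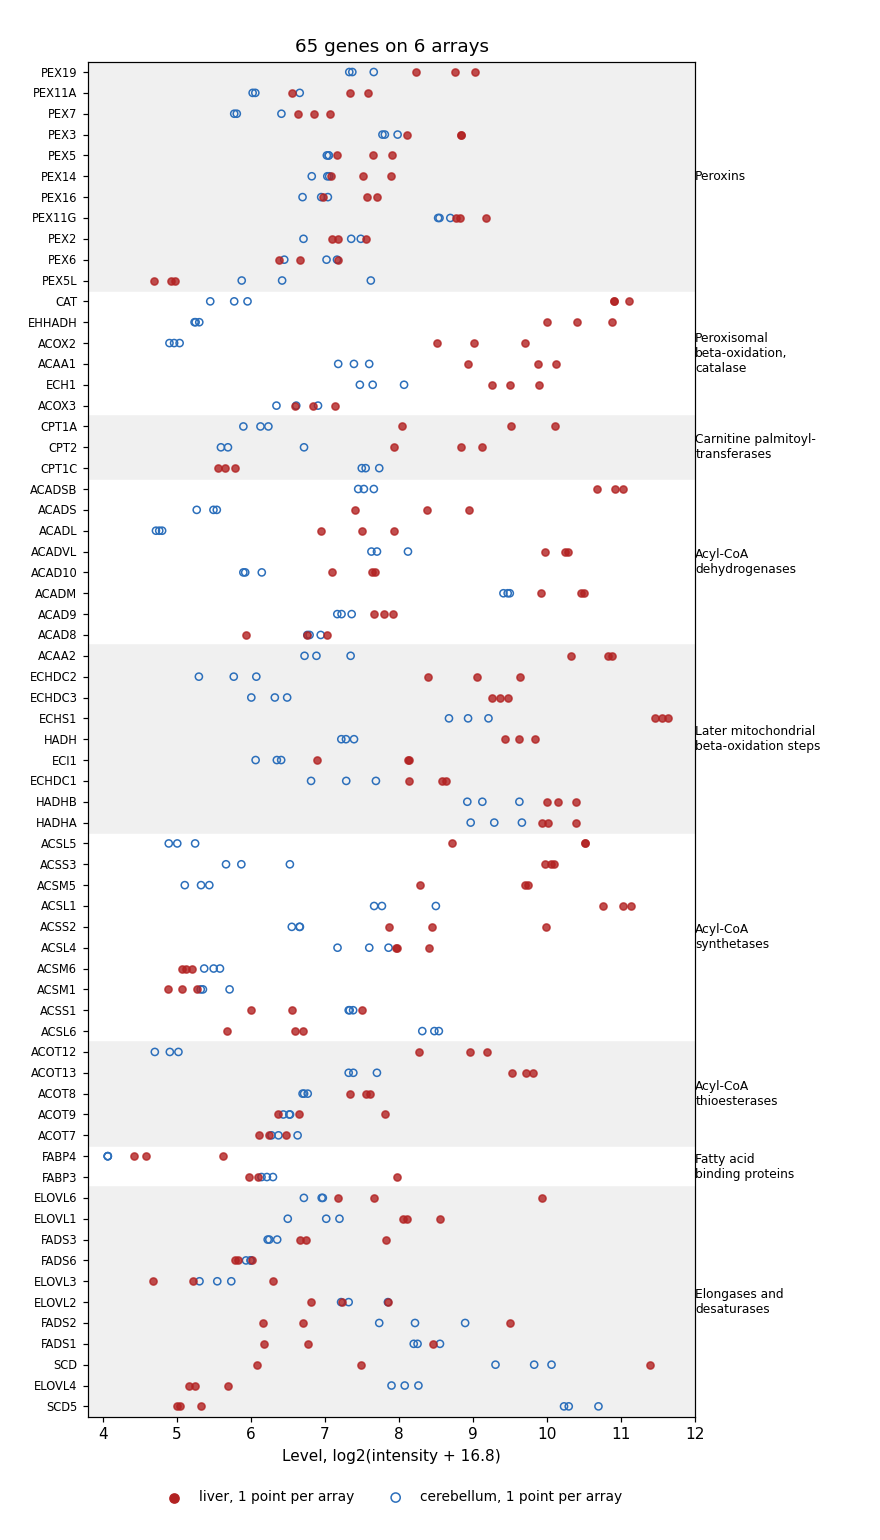
Levels of the 65 genes on each array as log2(intensity + 16.8), grouped by role, with filled points for livers and open points for cerebella. Filled points lie to the right of the open ones for 42 genes, while SCD5, ELOVL4, CPT1C, ACSL6, PEX5L, ACSM1 and ACSM6 show the opposite order.

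Peroxins are the proteins that build peroxisomes and import their enzymes, and their list here also holds PEX5L, a relative. Of its 11 measured genes, 4 were called higher in liver, 1 higher in cerebellum and 6 were not called. The shares of all features called were 23.9% toward liver and 26.7% toward cerebellum. The list had a median difference of 0.53. PEX19, the carrier of peroxisomal membrane proteins, was at 506, 417 and 284 in livers and 144, 185 and 149 in cerebella. Each liver exceeded each cerebellum, giving a log2 difference of 1.22 (standard error 0.23, limma adjusted p = 0.00247). PEX3, the membrane anchor that receives PEX19, differed by 0.74 (limma adjusted p = 0.0268). PEX7, the receptor for enzymes with the second type of peroxisomal targeting signal, was at 82.4, 117 and 98.9 in livers and 39.3, 68.4 and 38.0 in cerebella. Its difference was 0.85 (limma adjusted p = 0.0129). PEX11A, which acts in peroxisome division, differed by 0.91 (limma adjusted p = 0.0325), and its liver value of 77.2 in replicate 3 lay below the highest cerebellum value of 84.3.

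The calls of PEX7, PEX3 and PEX11A were lost in several fits with 1 array fewer, in which their differences were 0.74 to 0.76, 0.61 to 0.71 and 0.70 to 0.82, and under the alignment with all 6 arrays. The call of PEX7 was lost without liver replicate 2 or cerebellum replicate 1 or 3 (limma adjusted p over all alternatives from 0.00441 to 0.0847). That of PEX3 was lost without liver replicate 1 or 2 or cerebellum replicate 1 or 3 (from 0.00219 to 0.217), and that of PEX11A without liver replicate 1 or 2 or cerebellum replicate 2 or 3 (from 0.00434 to 0.171). The import receptor PEX5, the docking protein PEX14 and PEX16, a protein of membrane assembly, had differences of 0.53, 0.53 and 0.52 and were not called (limma adjusted p = 0.0700, 0.0871 and 0.0910). Liver replicate 3 was the lowest liver for each of these 3 genes, and without it all 3 were called, with differences of 0.73, 0.74 and 0.75 (limma adjusted p = 0.00957, 0.0158 and 0.0118). Their adjusted p over all alternatives reached 0.539, 0.577 and 0.539.

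PEX11G, a second division factor, was at 436, 562 and 421 in livers and 397, 352 and 357 in cerebella. The livers lay above the cerebella by a small margin and the difference of 0.33 was not called (limma adjusted p = 0.154). The ubiquitin ligase PEX2 and the export ATPase PEX6 had differences of 0.09 and -0.14. PEX5L, a relative of PEX5 known in neurons as a subunit of HCN channels, was at 13.5, 14.8 and 9.19 in livers and 180, 42.0 and 69.0 in cerebella. PEX5L was the gene of the peroxin list called higher in cerebellum, with a difference of -1.77 (standard error 0.39, limma adjusted p = 0.00534). Cerebellum replicate 1 had the highest PEX5L value, and also the highest summed intensity of 3 oligodendrocyte markers, 5138 against 1555 and 2049 in cerebella 2 and 3. The part of those cells in the PEX5L level was not tested, and without that array the difference was -1.28 (limma adjusted p = 0.00426, with a range of 0.00152 to 0.0188 over all alternatives).

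Most of the measured enzymes of peroxisomal beta-oxidation showed large differences toward liver. Of 6 measured genes of peroxisomal beta-oxidation and catalase, 5 were called higher in liver in all 14 alternatives too, with a median difference of 3.18. In the main fit 23.9% of all features were called higher in liver. CAT, which encodes catalase, was at 1894, 2179 and 1894 in livers and 45.2, 38.0 and 27.0 in cerebella, a difference of 5.24 (standard error 0.19, limma adjusted p = 2.65e-07). EHHADH, an enzyme of the hydration and second oxidation steps, was at 1856, 1009 and 1337 in livers and 21.4, 21.0 and 22.7 in cerebella. The lowest liver lay far above the cerebella, and the difference was 5.16 (standard error 0.23, limma adjusted p = 6.51e-07).

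The other enzymes of the pathway were graded. ACOX2, the oxidase of branched chains and bile acid intermediates, averaged 556 ± 240 in livers and 14.5 ± 1.49 in cerebella (difference 4.11). ACAA1, the peroxisomal thiolase, averaged 831 ± 324 in livers and 152 ± 24.4 in cerebella (difference 2.25). ECH1, a dienoyl-CoA isomerase, averaged 746 ± 173 in livers and 199 ± 47.3 in cerebella (difference 1.82). ACOX3, another oxidase of branched chains, stood outside the pattern. Its values of 79.7, 97.2 and 124 in livers overlapped those of 103, 64.5 and 81.1 in cerebella, and its difference of 0.23 was not called (limma adjusted p = 0.407).

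Carnitine palmitoyltransferases move long acyl chains into mitochondria. The 3 measured genes were all called, in opposite directions, where 50.6% of all features were called in either direction. CPT1A, the liver form of the outer membrane enzyme that limits the rate of entry, was at 710, 1082 and 246 in livers and 53.2, 58.6 and 42.9 in cerebella. The livers all lay above the cerebella but differed among themselves, and the difference was 3.13 (standard error 0.46, limma adjusted p = 5.56e-04). Without liver replicate 3, the lowest, it was 3.72 (limma adjusted p = 1.20e-05, with a range of 1.20e-05 to 0.00347 over all alternatives). CPT2, the partner in the inner membrane, was at 440, 542 and 227 in livers and 34.9, 88.5 and 31.6 in cerebella (difference 2.63, limma adjusted p = 5.55e-04). CPT1C, a brain form known from the endoplasmic reticulum of neurons, was at 33.7, 38.4 and 30.2 in livers and 196, 164 and 171 in cerebella. Its values were tight in both tissues, and the difference was -1.93 (standard error 0.17, limma adjusted p = 2.45e-05).

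Of 8 acyl-CoA dehydrogenases, which open each cycle in mitochondria, 7 were called higher in liver and none in cerebellum (23.9% and 26.7% of all features). Their median difference was 1.92. ACADSB, which acts on short branched chains from isoleucine, was at 2072, 1920 and 1622 in livers and 168, 186 and 158 in cerebella (difference 3.33, limma adjusted p = 1.43e-06). ACADS, the short-chain enzyme, was at 477, 316 and 153 in livers and 21.8, 29.7 and 28.3 in cerebella, and the spread among livers was wide (difference 2.81, limma adjusted p = 2.24e-04). ACADL and ACADVL, for long and very long chains, had differences of 2.70 and 2.35. ACADL was dim in cerebella, at 9.55 to 11.1, and reached 107 to 227 in livers.

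The medium-chain enzyme ACADM was an intermediate case. It was at 1429, 1396 and 953 in livers and 705, 691 and 664 in cerebella, so that cerebella also had a clear signal, and its difference was 0.84 (limma adjusted p = 0.00791). ACAD10 differed by 1.48. ACAD9, known also for the assembly of respiratory complex I, differed by 0.54 (limma adjusted p = 0.0236). The call did not hold without liver replicate 2, without any of the 3 cerebella and with a replicate block (from 0.0155 to 0.473 over all alternatives). ACAD8, which acts in valine breakdown, was not called, at 83.1 ± 35.2 in livers and 97.4 ± 7.78 in cerebella (difference -0.26, limma adjusted p = 0.464).

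The list of later steps held 6 enzymes of the mitochondrial cycle and 3 ECHDC genes, relatives of the hydratases, of which ECHDC1 is known as a cytosolic decarboxylase. All 9 were called higher in liver, with no overlap of livers and cerebella for any of them. Among all features 23.9% were called higher in liver, and in 28.4% all 3 livers lay above all 3 cerebella. The median difference of the 9 genes was 2.33. ACAA2, the thiolase that ends the cycle, was at 1872, 1791 and 1268 in livers and 101, 146 and 89.0 in cerebella (difference 3.69, limma adjusted p = 4.27e-06). ECHS1, the short-chain enoyl-CoA hydratase, was at 3151, 2988 and 2804 in livers and 472, 575 and 392 in cerebella (difference 2.61, limma adjusted p = 8.66e-06). ECHDC2 was at 778, 513 and 320.5 in livers and 37.7, 22.6 and 50.6 in cerebella (difference 3.31, limma adjusted p = 5.72e-05). Livers varied more in ECHDC2 than in ECHS1.

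HADH, the short-chain hydroxyacyl-CoA dehydrogenase, and the isomerase ECI1 differed by 2.33 and 1.44, and ECHDC3 and ECHDC1 by 3.09 and 1.18. HADHA and HADHB, the 2 subunits of the trifunctional protein for long chains, lie next to each other, with 0 protein-coding genes between them in RefSeq's annotation of the chimpanzee assembly NHGRI_mPanTro3-v2.0_pri. Their differences were alike and among the smallest of the list. HADHA averaged 1102 ± 197 in livers and 628 ± 155 in cerebella (difference 0.81, limma adjusted p = 0.0170), and HADHB averaged 1151 ± 161 in livers and 594 ± 159 in cerebella (difference 0.96, limma adjusted p = 0.00712). The call of HADHA was lost without liver replicate 1 or cerebellum replicate 1 or 3 (from 0.00942 to 0.115 over all alternatives).

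**Figure D2:**
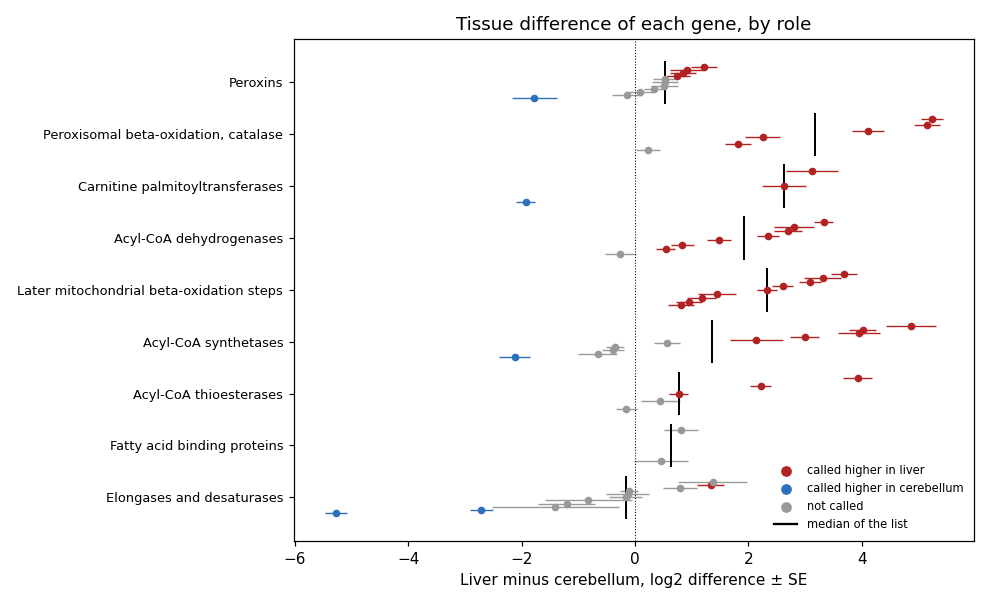
Log2 difference of each of the 65 genes, liver minus cerebellum, with its standard error, by role, coloured by the call, with the median of each list as a vertical bar. The median is 3.18 for peroxisomal beta-oxidation and catalase and -0.16 for elongases and desaturases, which hold genes called in either direction.

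Acyl-CoA synthetases activate fatty acids, and they split by isoform. Of 10 measured, 5 were called higher in liver, 1 higher in cerebellum and 4 were not called, where all features gave 23.9% and 26.7%. ACSL1, the main long-chain form of liver, was at 2227, 2072 and 1705 in livers and 345, 186 and 201 in cerebella (difference 2.99, limma adjusted p = 2.03e-05). ACSL5, a long-chain form of liver and intestine, was at 1450, 1446 and 405 in livers and 15.4, 21.2 and 12.9 in cerebella (difference 4.87, standard error 0.45, limma adjusted p = 3.60e-05). Liver replicate 3 was far below the other livers in ACSL5, and without it the difference was 5.47 (limma adjusted p = 1.24e-06, the lowest of all alternatives, of which the highest was 3.60e-04). ACSL6, a long-chain form of brain known for its preference for docosahexaenoic acid, was at 79.6, 87.4 and 34.3 in livers and 340, 302 and 355 in cerebella. It was called higher in cerebellum (difference -2.12, limma adjusted p = 2.82e-04). ACSL4, which prefers arachidonic acid, was not called (difference 0.56, limma adjusted p = 0.0699), though it was without cerebellum replicate 2 (difference 0.72, limma adjusted p = 0.0396, with a highest value of 0.413 over all alternatives).

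ACSS3, a mitochondrial synthetase for propionate, was at 1049, 1078 and 986 in livers and 41.8, 75.4 and 33.9 in cerebella (difference 4.02, limma adjusted p = 2.87e-06). The medium-chain synthetase ACSM5 differed by 3.95. ACSS2, which makes cytosolic acetyl-CoA from acetate, differed by 2.14 (limma adjusted p = 0.00490), but its livers were at 215, 332 and 996 beside cerebella of 84.5, 84.0 and 77.1. Without liver replicate 3 the ACSS2 difference was 1.53 (limma adjusted p = 7.88e-04, with a range of 7.88e-04 to 0.0197 over all alternatives). ACSS1, the mitochondrial acetate enzyme, was not called, with scattered livers at 165, 47.5 and 76.8 and close cerebella at 143, 145 and 150 (difference -0.66, limma adjusted p = 0.140). Without liver replicate 1 its difference was -1.07 and it was called (limma adjusted p = 0.00514, with a highest value of 0.423 over all alternatives). ACSM1 and ACSM6 were dim in both tissues and not called, at 17.0 ± 4.54 and 18.5 ± 1.71 in livers and 27.7 ± 6.94 and 28.0 ± 3.30 in cerebella (differences -0.39 and -0.34), and both were called higher in cerebellum under the alignment on general genes (limma adjusted p = 0.0266 and 0.0421, with highest values of 0.303 and 0.290 over all alternatives). Genes of the ACSM family are paralogs, whose probes may share signal.

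Acyl-CoA thioesterases, which free fatty acids from CoA, gave 3 calls toward liver among 5 genes and none toward cerebellum. All features gave 23.9% and 26.7%. ACOT12, an acetyl-CoA hydrolase of the cytosol, was at 482, 567 and 291 in livers and 15.7, 9.28 and 13.2 in cerebella (difference 3.93, limma adjusted p = 4.71e-06). ACOT13 was at 883, 822 and 723 in livers and 143, 191 and 150.2 in cerebella (difference 2.22, limma adjusted p = 1.83e-05). ACOT8, the peroxisomal form, differed by 0.77 (limma adjusted p = 0.00415). A feature that pairs ACOT8 with SNX21 was at 99.6, 103 and 64.6 in livers and 106, 101 and 104 in cerebella. It was not called (difference -0.21, limma adjusted p = 0.412). ACOT7, a form known for its high level in neurons, was not called, at 60.9 ± 10.1 in livers and 69.7 ± 11.2 in cerebella (difference -0.15, limma adjusted p = 0.514). ACOT9, a mitochondrial form, was not called either, with livers at 65.9, 83.8 and 207 and cerebella at 69.9, 75.6 and 74.9 (difference 0.45, limma adjusted p = 0.306).

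The 2 fatty acid binding proteins measured singly were not called. FABP3, the form of heart muscle, was at 51.6, 46.1 and 235 in livers and 53.9, 57.6 and 61.9 in cerebella. Livers 1 and 2 lay just below the cerebella and liver 3 far above them, and the difference of 0.46 (limma adjusted p = 0.447) was -0.18 without it (limma adjusted p = 0.394, within a range of 0.227 to 0.801 over all alternatives). FABP4, the form of adipocytes and macrophages, was at 4.68, 7.11 and 32.6 in livers and below 0 in all 3 cerebella (difference 0.81, limma adjusted p = 0.0529, with a range of 0.0120 to 0.218 over all alternatives). It was called higher in liver with a pseudocount of 4.20, where the difference was 1.88. The same call was made with a replicate block, with the other variance model and without liver replicate 1. Both genes are also markers of other tissues. Of 3 measured markers of muscle and heart, CKM and MB stayed below 16.8 on all 6 arrays, while ACTA1 was called higher in liver (difference 0.69, limma adjusted p = 0.0149), and the sum of the 3 was 131 to 166 in livers and 70.6 to 102 in cerebella. Of 3 measured adipocyte markers, ADIPOQ was at 13.8, 25.4 and 21.2 in livers, PLIN1 was at 112, 140 and 30.7 in livers and LPL was called higher in cerebellum (difference -2.79), with sums of 95.4 to 210 in livers and 313 to 653 in cerebella. The part of such cells in the levels of FABP3 and FABP4 was not tested.

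Elongases and desaturases, which lengthen chains and insert double bonds, were mostly not called. Of 11 measured, 1 was called higher in liver (9.09%, against 23.9% of all features), 2 higher in cerebellum (18.2%, against 26.7%) and 8 were not called, with a median difference of -0.16. SCD5, a desaturase of the brain, was at 15.4, 23.5 and 16.3 in livers and 1183, 1639 and 1237 in cerebella. Its difference of -5.28 (standard error 0.20, limma adjusted p = 3.05e-07) was opposite in sign to that of CAT and of about the same size. ELOVL4, which makes very long chains and is known from brain and retina, was at 35.0, 19.2 and 21.3 in livers and 222, 290.2 and 253 in cerebella (difference -2.71, limma adjusted p = 1.06e-05). ELOVL1, an elongase of saturated chains in many tissues, was at 259, 249.5 and 359 in livers and 129.9, 113 and 73.6 in cerebella, and was called higher in liver (difference 1.34, limma adjusted p = 0.00164).

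For 5 genes of this group liver replicate 3 lay at least 2-fold above the mean of the other livers. SCD, the main desaturase of saturated chains in liver, was at 51.0, 163 and 2673 in livers and 615, 890.5 and 1051 in cerebella. Livers 1 and 2 lay below every cerebellum and liver 3 above every cerebellum, and the difference of -1.41 had a standard error of 1.12 (limma adjusted p = 0.328). FADS2 and FADS1, the desaturases of polyunsaturated chains, were at 54.9, 87.5 and 707 and at 55.3, 92.9 and 334 in livers, against 196, 459 and 281 and 288, 359 and 277 in cerebella. In the main fit neither was called, with differences of -0.82 and -1.20 (limma adjusted p = 0.403 and 0.0771). Without liver replicate 3, SCD, FADS2 and FADS1 were called higher in cerebellum, with differences of -2.94, -1.85 and -1.86 (limma adjusted p = 8.06e-04, 0.00331 and 4.52e-04), whereas over the other alternatives the highest adjusted p reached 0.827, 0.861 and 0.222. FADS1 was also called higher in cerebellum with all 6 arrays aligned on general genes (difference -1.52, limma adjusted p = 0.0123). ELOVL6, which extends palmitate, was at 128, 185 and 960.2 in livers and 109, 88.3 and 107 in cerebella (difference 1.38, limma adjusted p = 0.0919). Without liver replicate 3 the difference was 0.54 (limma adjusted p = 0.0647), and it was called without liver replicate 1 and with a replicate block, over a range of 0.0293 to 0.195. FADS3 was at 90.1, 84.8 and 209 in livers and 65.1, 59.3 and 58.1 in cerebella (limma adjusted p = 0.0544, with a range of 0.0404 to 0.235 over all alternatives, and called without liver replicate 1 or 2, with a replicate block and with dim features left out). ELOVL2, ELOVL3 and FADS6 overlapped between tissues and had differences of -0.16, -0.13 and -0.10. FADS1, FADS2 and FADS3 are neighbours in the same RefSeq annotation, with 0 protein-coding genes between FADS1 and FADS2 and between FADS2 and FADS3.

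Liver replicate 3 differed from the other livers in some of the 65 genes and lay within 2-fold of them in 48. Set against the mean log2 level of the other 2 livers, it was at least 2-fold above for 9 genes (13.8%, against 3.36% of all features) and at least 2-fold below for 8 (12.3%, against 2.75%). The 9 were SCD, FADS2, ELOVL6, FADS1, FABP3, ACSS2, ACOT9, FABP4 and FADS3, with shifts of 4.61, 3.07, 2.51, 1.98, 1.94, 1.83, 1.29, 1.12 and 1.12. The 8 were ACSL5, CPT1A, ACSM5, ACADS, ECI1, ELOVL3, ACAA1 and CPT2, with shifts of -1.80, -1.77, -1.44, -1.26, -1.24, -1.08, -1.07 and -1.05. Apart from ELOVL3, a dim elongase, the 8 belong to activation, mitochondrial entry and beta-oxidation. The median shift was 1.53 for the 2 fatty acid binding proteins and 0.84 for elongases and desaturases. It was -1.05 for carnitine palmitoyltransferases, -0.62 for the peroxin list, of which no gene shifted 2-fold, and -0.43 for acyl-CoA dehydrogenases. Both lists of beta-oxidation enzymes had -0.27, synthetases -0.16, thioesterases -0.05 and all features -0.02. Liver 3 gave the lowest of the 3 liver values for 37 of 65 genes (56.9%, against 37.4% of all features). These are values of 1 array, with no test.

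**Figure D3:**
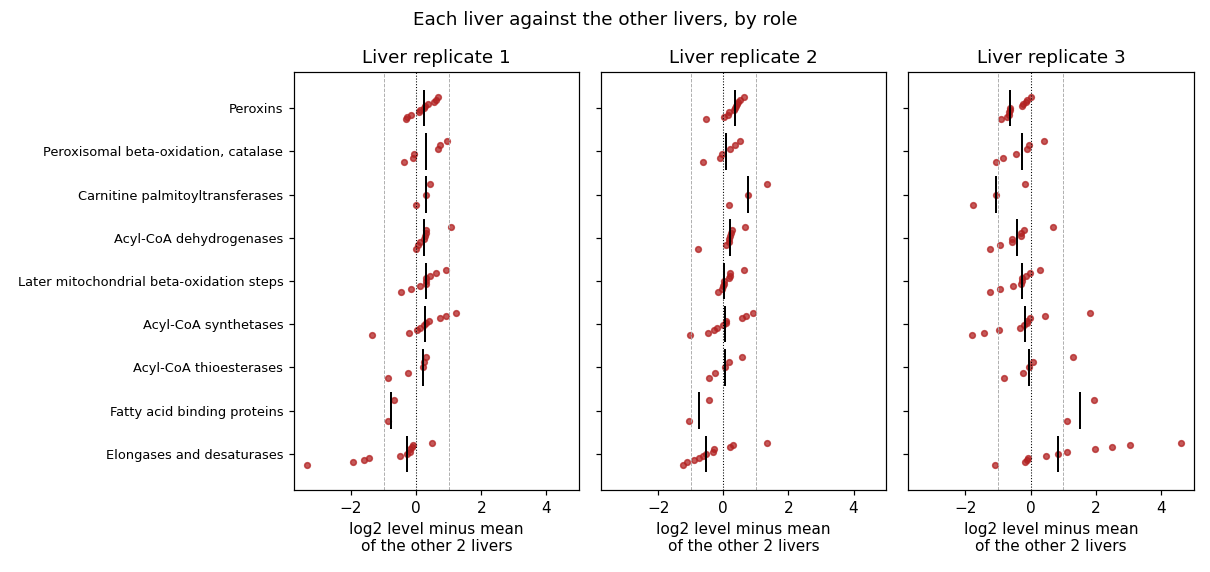
Log2 level of each of the 65 genes in a liver minus its mean in the other 2 livers, by role, for livers 1, 2 and 3, with the median of each list as a vertical bar and dashed lines at a 2-fold difference. In liver 3 the elongases and desaturases extend to 4.61 above the others, while carnitine palmitoyltransferases have a median of -1.05; the 3 shifts of a gene balance each other.

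Livers 1 and 2 were closer to the rest. Liver 1 was at least 2-fold above the other livers for 2 genes and below for 5 (2.33% and 1.84% of all features), and liver 2 above for 2 and below for 4 (0.812% and 1.36%). Since each shift is set against the other 2 livers, some of these counts mirror those of liver 3. Livers 1 and 2 were themselves not equal for SCD, at 51.0 and 163. Cerebellum 1 was at least 2-fold above the other 2 cerebella for 1 gene and below for 0 (0.72% and 0.363% of all features), cerebellum 2 above for 1 and below for 1 (1.29% and 1.2%), and cerebellum 3 above and below for 0 (0.244% and 0.258%). The median SD of a gene over 3 arrays, on the log2 scale, was 0.38 in livers and 0.18 in cerebella, against 0.26 and 0.20 over all features.

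Some genes of the other pathway lists also differed at least 2-fold between liver replicate 3 and the other livers. These were 3 of 8 genes of fatty acid synthesis, all higher, 3 of 9 further genes of mitochondrial oxidation, all lower, 2 of 11 of uptake and binding, both lower, and 1 higher and 1 lower of 10 regulators. Of the peroxisomal lists, 1 of 19 lipid and membrane genes was lower, and 1 of 12 other enzymes was higher and 1 lower, while none of 3 ketone body genes shifted 2-fold. Among all features 3.36% were at least 2-fold higher in liver 3 and 2.75% at least 2-fold lower, and counts of 1 gene in a list carry little weight. FASN, the fatty acid synthase, was at 125, 159 and 1192 in livers and 182, 195 and 219 in cerebella. ACLY, which supplies cytosolic acetyl-CoA, was at 188, 278 and 865 in livers and 233, 441 and 329 in cerebella, and ME1, which supplies NADPH, was at 112, 159 and 485 in livers and 62.3, 92.7 and 66.8 in cerebella. SREBF1, a transcription factor of lipid synthesis, was at 79.3, 128 and 285 in livers and 44.2, 96.1 and 47.0 in cerebella. SLC25A20, the carnitine-acylcarnitine carrier between CPT1 and CPT2, ran the other way, at 647, 636 and 203 in livers and 18.2, 24.0 and 17.3 in cerebella. PPARGC1A, a coactivator of oxidative genes, was at 439, 625 and 111 in livers and 69.3, 151 and 92.2 in cerebella. These 6 genes were picked after their values were seen, and liver 3 was the highest liver for FASN, ACLY, ME1 and SREBF1 and the lowest for SLC25A20 and PPARGC1A.

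Markers of cell types also differed between liver replicate 3 and the other livers, in both directions. Among all features 3.36% were at least 2-fold above the other livers and 2.75% at least 2-fold below. Of 6 fibroblast and stellate cell markers, 5 were at least 2-fold above the other livers, and the summed intensity of the 6 was 1420, 1343 and 4126 in livers 1, 2 and 3, with none of the 6 at 0 there, and 221 to 605 in cerebella. Of 7 macrophage markers, 3 were 2-fold above, with sums of 3130, 3030 and 5805 in livers, none at 0, and 196 to 300 in cerebella. Of 4 bile duct markers, 2 were 2-fold above, with sums of 701, 506 and 929 in livers and 551 to 724 in cerebella, and KRT7 lay below 0 in livers 1 and 2 and at 127 in liver 3. SOX9, also of the bile duct list, had a shift of -0.20. The sum of 7 hepatocyte markers was 27021, 25854 and 21780 in livers. Of these 7, TAT was 2-fold below, at 2190, 1887 and 822, and none was 2-fold above. Among 6 endothelial markers, KDR was 2-fold below, at 356, 538 and 202, and none was 2-fold above. PECAM1, VWF, CDH5, STAB2 and FCN3 had shifts of 0.52, 0.69, 0.94, 0.85 and 0.15. The median shift of the 6 was 0.60, with sums of 1568, 1733 and 2024 in livers and 104 to 274 in cerebella. PLIN1 of the adipocyte list and SLC1A2 of the astrocyte list were also 2-fold below, with shifts of -1.58 and -4.03. HBB of the red cell list was 2-fold above, with a shift of 1.32. Of the Purkinje cell list, PCP4 was 2-fold above and CA8 2-fold below, with shifts of 1.63 and -1.39. The part of these cells in the shifts of SCD, CPT1A and the other genes was not tested.

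**Figure D4:**
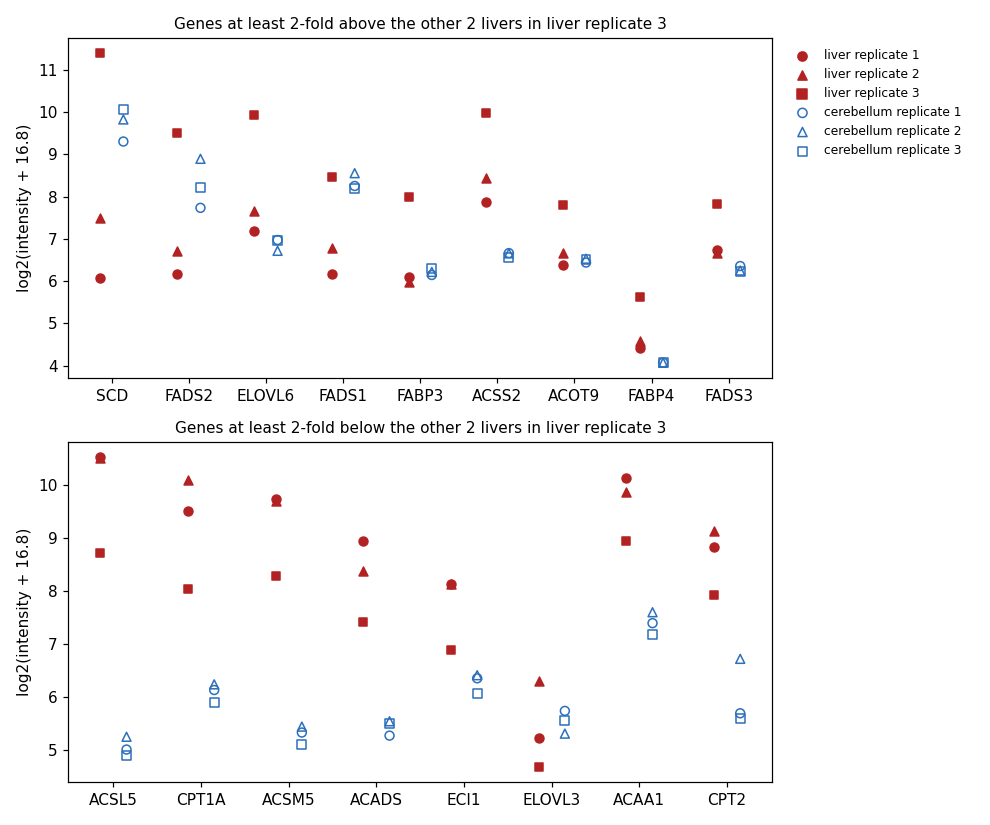
Levels as log2(intensity + 16.8) on all 6 arrays of the 9 genes at least 2-fold above and the 8 genes at least 2-fold below the other livers in liver replicate 3. Squares of liver 3 lie above both other livers in the upper panel and below both in the lower, and for SCD the shift is 4.61.

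The other genes of the pathways were taken from lists of their own, whose counts stand beside the 23.9% and 26.7% of all features called higher in liver and in cerebellum. Of 19 measured genes of peroxisomal lipid metabolism and the peroxisome membrane, 13 were called higher in liver and 2 higher in cerebellum. SLC27A2, a very long chain acyl-CoA synthetase of liver peroxisomes, differed by 5.26, and ABCD2, a peroxisomal fatty acid transporter, by -3.69, at 13.5, 12.9 and 14.8 in livers and 351, 389 and 395 in cerebella. FAR1, the other gene of the list called higher in cerebellum, differed by -2.89. HSD17B4 averaged 1274 ± 320 in livers and 451 ± 66.2 in cerebella (difference 1.44). GNPAT and TYSND1, among 4 not called, differed by -0.21 and 0.04. Of 12 other peroxisomal enzymes, 9 were called higher in liver and none in cerebellum, led by AGXT, which detoxifies glyoxylate, at 4.35. Among 9 further genes of mitochondrial oxidation, 7 were called higher in liver, led by SLC25A20 at 3.65, and 1 in cerebellum, the carnitine transporter SLC22A5 at -0.81. Of 3 ketone body genes, BDH1 and ACAT1, enzymes of synthesis in liver, were higher there by 3.32 and 2.75. OXCT1, which begins the use of ketone bodies outside the liver, was higher in cerebellum, at 14.3, 13.7 and 19.9 in livers and 141, 142 and 141 in cerebella (difference -2.28, limma adjusted p = 8.16e-06).

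Of 8 measured genes of fatty acid synthesis, 2 were called higher in liver and 1 higher in cerebellum. ACACB, the acetyl-CoA carboxylase whose product inhibits CPT1, differed by 3.78. ACACA, the carboxylase of cytosolic synthesis, differed by -0.77 (limma adjusted p = 0.0456), a call lost without liver replicate 1 or 2 or any of the 3 cerebella (from 0.00111 to 0.151 over all alternatives). Of 11 genes of uptake and binding, 6 were called higher in liver, with SLC27A5, a bile acid and fatty acid activating enzyme, at 4.76, and 2 in cerebellum, with FABP7, the fatty acid binding protein of radial and Bergmann glia, at -4.83. FABP7 was at 11.9, 10.3 and 9.10 in livers and 490, 1927 and 450.4 in cerebella, and without cerebellum replicate 2 its difference was -4.16 (limma adjusted p = 7.33e-06, with a range of 2.84e-07 to 6.90e-04 over all alternatives). Of 10 transcriptional regulators, 5 were called higher in liver and none in cerebellum, with RXRA, the partner of the PPAR receptors, at 3.37. Over these 7 lists, 10 of 44 calls toward liver were lost in some alternative, those of ABCD3, HACL1, PXMP4, AGPS, LONP2, DAO, MVK, ME1, DBI and PPARGC1A. Of 7 calls toward cerebellum, that of ACACA was lost.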

How the data were processed

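The deposited table holds an intensity per feature and array. Per the submitters' processing notes GCOS was used, while the sources used here do not give the background method, the summary of probes or the choice of probes. The authors' deposited intensities had been background-subtracted, since 93 values per array lay below 0, and quantile normalized, since sorted values differed at 0 positions between arrays, so a difference in total signal cannot be seen. The platform annotation gave 1 gene symbol to 12685 features, several to 1780 and none to 678. No 2 features with 1 symbol shared the symbol of a member.

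Values below 0 were set to 0 and log2(intensity + 16.8) was taken, 16.8 being the 10th percentile of all values. Each of 15143 features was compared, liver minus cerebellum, with limma 3.58.1 in R 4.3.3 (lmFit and eBayes, two-sided, no block, no filter), with Benjamini-Hochberg adjustment over all features and a threshold of 0.05. The fit was tested on simulated data. P values cover the spread between 3 arrays per tissue, labelled as biological replicates, and the number of arrays limits the precision. A permutation of 3 against 3 cannot give a two-sided p under 0.1. The members and lists were chosen with earlier results of these data known. Values on each array are given for the 2 members of each role with the largest called difference in each direction without overlap and for the brightest member. Other pathway lists name the largest called gene in each direction. ACADM, ACADL, ACOX3, PEX11A, ACSS1, ACSS2, ACOT9, FABP4, ELOVL6, the FADS genes and the genes named for liver replicate 3 were given array values after these were seen. ACAT1, HSD17B4, FAR1, GNPAT, TYSND1 and the marker genes were likewise named after their values were seen. Per the labels' protocols, total RNA was depleted of ribosomal RNA before labelling. Alternatives changed the pseudocount, floor, filter, block, scaling, variance model and arrays used.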

Additional observations from a re-analysis of the deposited data

How the results depend on the processing

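Of 65 genes, 36 were called higher in liver and 5 higher in cerebellum, and the other settings gave 28 to 38 and 5 to 9 with all arrays. Leaving out 1 array gave 31 to 39 higher in liver, 5 to 8 higher in cerebellum (8 without liver replicate 3), a median difference of 0.80 to 0.90 and 6113 to 7670 called features, against 7662 with all arrays. With a fold limit of 2 the counts were 28 and 5. Aligning arrays on 48 general genes gave 28 and 9 and a median of 0.52 in place of 0.84, and 31.8% of all calls were then higher in liver, against 47.2%, a shift that the alignment builds in. With a pseudocount of 4.20 the median was 0.97, since a smaller pseudocount widens the differences of dim genes. Over all settings 28 of the 65 genes changed call or sign, 20 of them among the 24 not called. The sign changed for 7 uncalled genes, ACAD8, ACOX3, ELOVL2, ELOVL3, PEX2, PEX6 and FABP3. FABP3 went to -0.18 without liver replicate 3 and reached 0.82 without liver replicate 2. Arrays of the same number share sex and age in the labels. Deviations from the tissue means correlated across features at 0.112, 0.164 and -0.144 for numbers 1, 2 and 3, and liver 1 correlated best with cerebellum 3. The 3 deviations of a tissue depend on each other, so these correlations cannot tell whether arrays share an animal. The numbers were not taken as pairs because the labels do not say that their arrays share an animal. A replicate block gave 38 and 5 calls, a median of 0.84 and 7532 called features. No 2 features with 1 symbol shared a member's symbol, so the choice between such features gave no alternative value. Of the 65 genes, 5 lay under the mean of 53.4 used as the filter on dim features, and the differences of such genes shrink with the pseudocount.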

Other observations

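A further 17 features carry a symbol of these gene families together with other symbols, so their signal is assigned to no gene here. Of these, 9 were called higher in liver (52.9%, against 23.9% of all features) and the other 8 were not called (limma, adjusted over all features). Among the 9, 4 differed by at least 3 on the log2 scale. The features that pair the members ACAD9, ACOT8 and FADS1 with other symbols were among the 8 not called. Their differences were 0.15, -0.21 and 0.004 (limma adjusted p = 0.577, 0.412 and 0.989), against 0.54, 0.77 and -1.20 for the features with 1 symbol. The feature with the largest difference was at 1589, 2215 and 2616 in livers and 10.5, 33.3 and 18.5 in cerebella (difference 5.86, limma adjusted p = 8.58e-07).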
